A study of Ramazzottius varieornatus with 48 samples.

Results

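The 200 transcripts described here had low levels 48 and 72 h after animals of the tardigrade Ramazzottius varieornatus, strain YOKOZUNA-1, were exposed to ultraviolet C (UVC). They were chosen from 8369 genes that had a single transcript and a mean level of at least 10 TPM, the relative abundance unit of the table, over all 48 libraries, in a table of 14532 transcripts from 13920 genes. A gene qualified when its group mean of log2(TPM + 1) was at least 1 lower at both Long 48 h and Long 72 h than in Long non-exposed animals, and at least 1 lower at Long 72 h than in Short non-exposed animals. This was met by 510 genes, and the 200 with the lowest values, taking the smaller of the 2 falls for each gene, were kept. The transcript g7651.t1 was left out by name. Because the choice used the non-exposed, Long 48 h and Long 72 h values, every difference between those groups is a description without a test.

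UVC is absorbed by DNA and joins neighbouring pyrimidines into dimers that block transcription and replication, and it also raises reactive oxygen species. Tardigrades survive doses of radiation that kill most animals, in the active state as well as after losing nearly all their water (anhydrobiosis). After exposure a surviving animal has to repair its DNA and clear oxidised molecules while its tissues keep working.

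The exposed groups comprised 3 libraries at each time, namely 12, 18 and 24 h and then 36, 48 and 72 h in the Long time course, and every hour up to 6 h and then 9 and 12 h, starting at 1 h, in the Short time course. Each course had its own non-exposed group of 3 libraries collected at 0 h. Each library was made from the pooled RNA of 30 whole animals, and the labels give the lamp intensity as 0.54 mW/cm2 in both courses. The paper's methods instead give a somewhat higher intensity for each course, with intensity and exposure time differing between Short and Long. Long animals received Chlorella as food at 12 h. No non-exposed animals were collected at a later time, so exposure, time on the plate and feeding cannot be told apart in any difference from the non-exposed libraries. In whole animals, fewer cells of a type and less RNA per cell cannot be told apart either, and TPM is relative to the total of a library. Mapped reads numbered 2873873 to 18853603 in a Long library, with a median of 6706423, and 2639481 to 20936668 in a Short library, with a median of 7286606.

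Libraries differed in how many transcripts they recovered. Of 6758 abundant transcripts outside the 200 (mean of at least 20 TPM), 4 to 29 were listed at exactly 0 in the 6 libraries of Long 48 and 72 h, against 124 to 207 in the Long non-exposed libraries and 12 to 114 in the Short non-exposed ones. The highest numbers among exposed libraries were 710 in replicate 1 of Long 24 h, 323 in replicate 3 of Short 4 h, 229 in replicate 2 of Short 5 h and 214 in replicate 2 of Long 12 h. The number of such transcripts moved with the level of many members, as described further on, and its part in the results was not tested.

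The members carry only identifiers. None of the 200 was among the 961 transcripts that the study's tables annotate. Of these, 561 had a protein name, and 526 of the named ones met the same limits on transcripts per gene and TPM. Those tables list transcripts that the study selected on these samples, mostly for rising, so the absence says nothing independent about function. None of the 20 lists of named transcripts used here, from ribosome and DNA repair to muscle and gut enzymes, held a member. As measures of what else the animals expressed, the 30 transcripts for gut enzymes had a summed level of 11360 to 12734 TPM at Long 48 h and 11971 to 12394 TPM at Long 72 h, against 5447 to 7753 TPM in Long non-exposed libraries. The vitellogenin transcript, a yolk protein that marks developing eggs, had 648 to 4167 TPM at Long 48 h and 1328 to 2989 TPM at Long 72 h, against 1996 to 2780 TPM in Long non-exposed libraries. Other lists were higher as well. In 12 of the 20 lists every Long 48 h and 72 h library lay above every Long non-exposed library, among them ribosome and translation (15498 to 22562 TPM, against 8447 to 10017 TPM) and muscle and cytoskeleton (2478 to 3111 TPM, against 1406 to 1711 TPM). In the other 8 lists, yolk included, the ranges overlapped, as for histones and chromatin (2356 to 3424 TPM, against 3368 to 4368 TPM). The lists come from the same tables of mostly rising transcripts, and their part in the members' levels was not tested.

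Among the members, the mean over all libraries reached 1135 TPM (median 35.9 TPM), against a median of 44.9 TPM for the 8169 other genes that met the same limits, and 42 members averaged 100 TPM or more. Together they made up 0.643% of all TPM at Long 48 h and 0.593% at Long 72 h, against 3.12% in Long non-exposed and 2.96% in Short non-exposed libraries. The 10 members with the highest level in Long non-exposed libraries held 35.4% of the members' TPM there. The other genes had a median log2 difference from Long non-exposed of −0.13 at 48 h and −0.23 at 72 h, and 15.3% of them at 48 h and 20.9% at 72 h were also at −1 or lower.

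The fall was not steady over time. The summed TPM of the members averaged 31235 ± 3947 in Long non-exposed libraries, 17367 ± 6098 at 12 h, 14633 ± 1208 at 18 h, 28042 ± 10352 at 24 h, 9426 ± 2414 at 36 h, 6428 ± 2250 at 48 h and 5934 ± 1312 at 72 h (SD, n = 3 each). The median log2 difference from Long non-exposed was −0.75 at 12 h, −1.03 at 18 h, −0.40 at 24 h, −1.53 at 36 h, −2.20 at 48 h and −2.55 at 72 h. Levels dropped by 12 to 18 h, stood higher at 24 h and were low from 36 h on. Between neighbouring times, 172 of the 200 had a higher group mean at 24 h than at 18 h (median difference 0.62), and 182 a lower one at 36 h than at 24 h (median −1.16). Without replicate 1 of Long 24 h, which had the highest member sum of all libraries (38747 TPM), these differences were 0.31, with 156 members higher, and −0.82. After 36 h, 163 members were lower at 48 h than at 36 h (median −0.68), and 147 lower at 72 h than at 48 h (median −0.29). The choice required low values at 48 and 72 h, so these 2 counts are descriptions only. The other genes had a median difference from Long non-exposed of 0.09 at 18 h, −0.01 at 24 h and −0.07 at 36 h. Counts between neighbouring times are not given for them.

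From the first time at which it then stayed at least 1 below Long non-exposed on the log2 scale, each member can be given an onset. This was 36 h for 130 members and 48 h for 36, with 23 already down from 12 h, 5 from 18 h and 6 from 24 h. The 36 whose onset was 48 h had a median difference of −0.74 at 36 h and −2.07 at 48 h. By the choice, 48 h was the latest onset possible. Regardless of later times, 81 members (40.5%) were at least 1 below at 12 h and 105 (52.5%) at 18 h. At 24 h there were 37 (18.5%) and at 36 h 164 (82.0%). Among the other genes the shares were 9.47%, 7.34%, 13.9% and 10.7%. The choice used the Long non-exposed level, so nothing is read from these excesses.

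In 167 of the 200 members (83.5%), every Long 48 h and 72 h library lay below every Long non-exposed library, against 18.5% of the 8369 genes. In 77 (38.5%) they also lay below every Short non-exposed library, against 3.37%. The choice of members used these libraries, so nothing is read from either excess. Just inside the limit were g2849.t1, g658.t1 and g10502.t1 (smaller fall −1.80 each), and just outside it g9616.t1 (−1.80), g8061.t1 (−1.79) and g2555.t1 (−1.79).

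**Figure D1:**
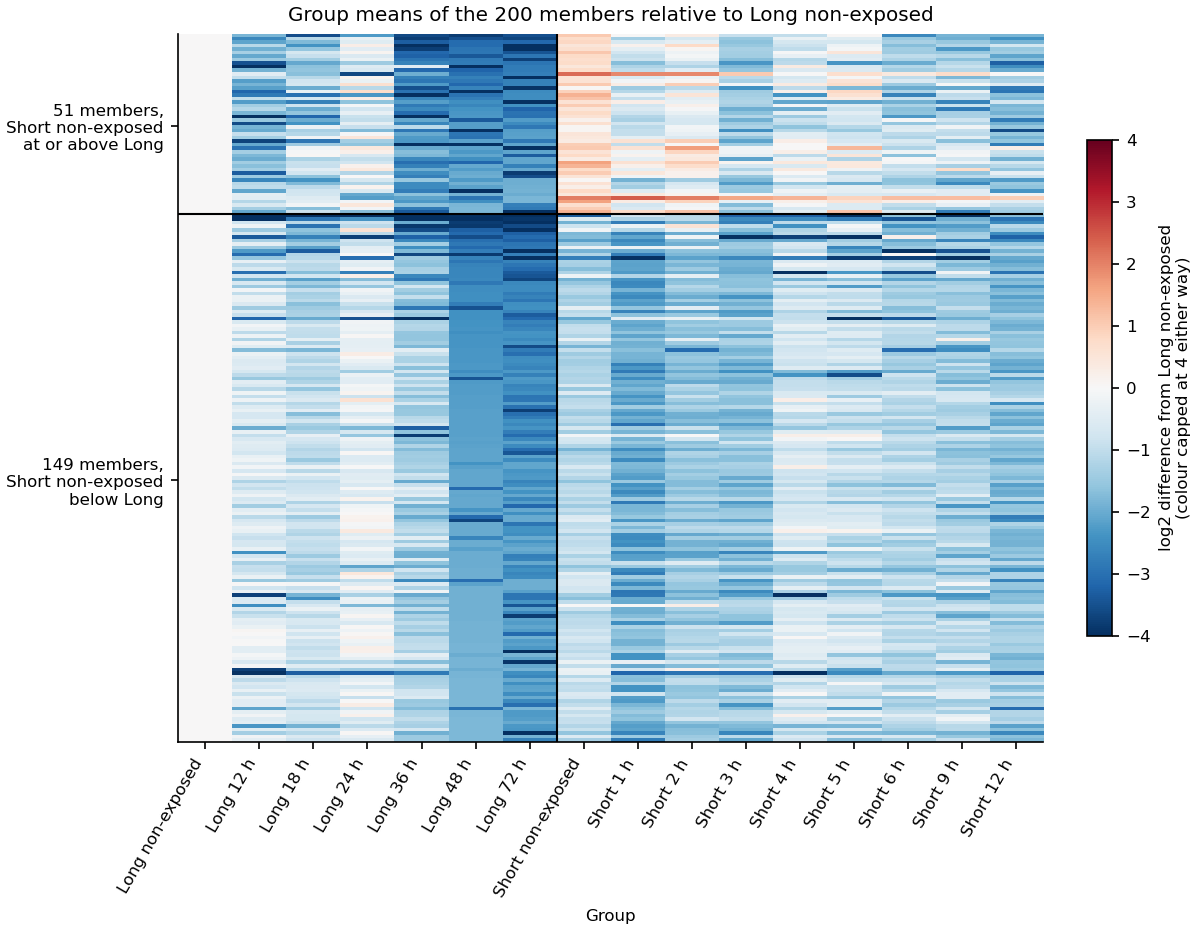
Log2 difference of the group mean of log2(TPM + 1) from Long non-exposed for each of the 200 members (rows) in the 16 groups (columns), with blue for lower and red for higher values. All members are blue at Long 48 and 72 h by the rule that chose them, and the upper 51 rows differ from the lower 149 in being pale or red in Short non-exposed animals.

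The members with the lowest values include transcripts whose libraries disagreed. The lowest of all, g2090.t1, had 200.1, 0.0006895 and 103.6 TPM at Long 48 h and 0.001376, 0 and 99.9 TPM at Long 72 h, against 374.6, 346 and 581 TPM in Long non-exposed libraries. It was listed near 0 in replicate 1 of Short non-exposed too (4.568e-05 TPM, beside 320.0 and 236 TPM), so that it was near 0 in some libraries of a group and abundant in others. Likewise g8847.t1 and g3020.t1 had values at 0 in 5 and 3 of the 6 late libraries. For g3020.t1 Long non-exposed libraries themselves had 86.9, 6.35 and 188 TPM. Over all members, 40 of 1200 values at Long 48 and 72 h were listed at 0, against 4 of 1200 in the non-exposed libraries, and 164 members had no value of 0 in any library. The choice of members favours zeros at the late times, so nothing is read from the excess there.

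No library was listed at 0 at the late times in g1125.t1, g8454.t1, g13018.t1 and g1024.t1, which are also among the 10 lowest. Transcript g1125.t1 had 21.3, 13.7 and 74.5 TPM at Long 48 h and 165, 6.62 and 12.7 TPM at Long 72 h, against 349, 224 and 461 TPM in Long non-exposed libraries. For g8454.t1 the values were 332, 47.0 and 352 TPM at Long 48 h and 564, 143 and 61.8 TPM at Long 72 h, against 1022, 1715 and 1967 TPM in Long non-exposed libraries. In both genes the late libraries all lay below the non-exposed ones, but replicate 1 of Long 72 h stood well apart from the others, at 165 TPM beside 6.62 and 12.7 TPM in g1125.t1. For g13018.t1 the late libraries were closer together, with 1.71, 4.97 and 4.30 TPM at Long 48 h and 0.483 to 4.5 TPM at Long 72 h, against 62.7, 76.0 and 45.6 TPM in Long non-exposed libraries. For g1024.t1 the late libraries ranged from 2.19 to 28.2 TPM, against 66.0 to 196 TPM in Long non-exposed libraries.

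The most abundant member in Long non-exposed animals was g4531.t1. It averaged 292 ± 190.5 TPM at Long 48 h and 655 ± 502 TPM at Long 72 h, against 2238 ± 229 TPM in Long non-exposed libraries (SD, n = 3 each). Its Long 24 h libraries, at 3951, 3248 and 1192 TPM, included the 2 highest values of any library. Another abundant member, g8702.t1, averaged 309 ± 58.7 TPM at Long 48 h and 201.4 ± 128 TPM at Long 72 h, against 1400.0 ± 125 TPM in Long non-exposed libraries (SD, n = 3 each). For g2413.t1 the averages were 341 ± 43.4 TPM and 257 ± 46.6 TPM at the late times, against 1287 ± 402 TPM in Long non-exposed libraries (SD, n = 3 each). The SD of g4531.t1 at 72 h was large beside its mean. The choice used these groups, so the SDs describe the spread between libraries and are no test of the falls.

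Not all members kept falling after 36 h. Of the named members, g4218.t1 had the largest drop between 36 and 72 h, with 140.3, 144 and 215 TPM at 36 h, 108, 144 and 92.2 TPM at 48 h and 0 to 98.1 TPM at 72 h. At the other end, g4460.t1 had 73.5, 2.49 and 9.02 TPM at 36 h, 8.88, 14.3 and 95.2 TPM at 48 h and 303, 142 and 14.1 TPM at 72 h. Its Long non-exposed libraries had 435, 194 and 635 TPM, so the highest library at 72 h lay within their range.

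**Figure D2:**
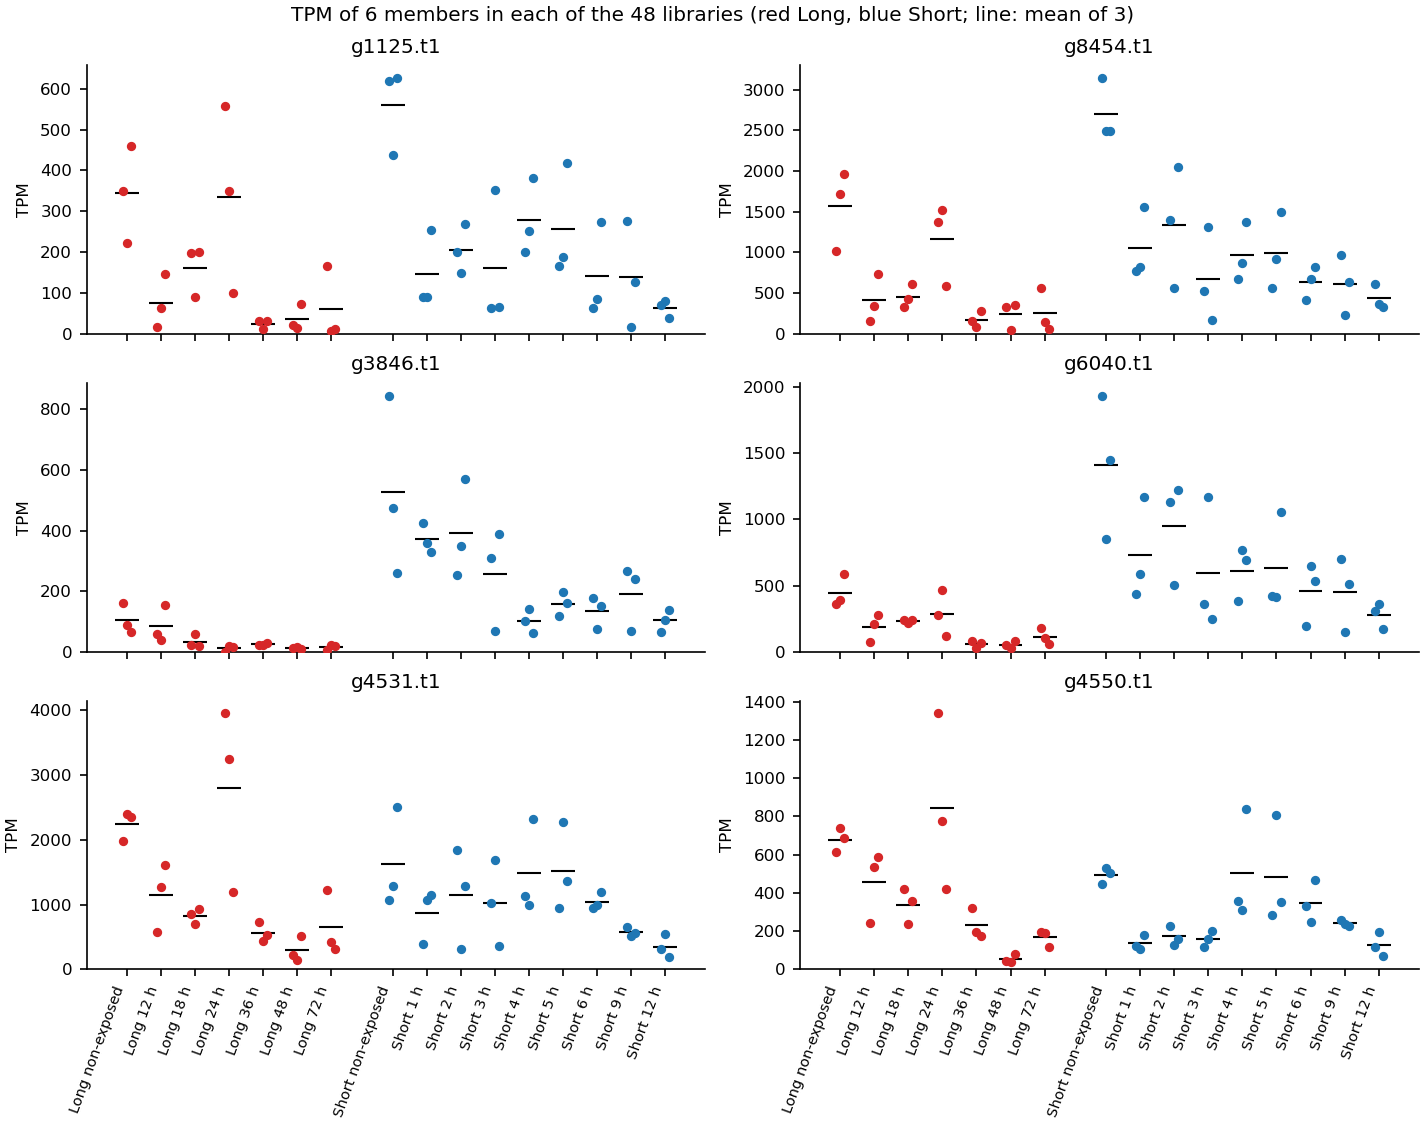
TPM (vertical axis, from 0) of 6 members in every library, with 3 points for each of the 16 groups and a line at their mean; red is Long and blue is Short. The top 4 panels are members that were higher in Short than in Long non-exposed animals, and the bottom pair were lower there, with g4531.t1 and g4550.t1 at their highest in a Long 24 h library.

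A split that was made after the values were seen divided the members into 2 sets. In 51 members the Short non-exposed mean was at or above the Long non-exposed mean, and in 149 it was below, with 5 of the 51 and 4 of the 149 within 0.2 of the dividing line. Over the 48 libraries the median correlation between members was 0.6 within either set and 0.28 between them. The median over all pairs of members was 0.436 and over pairs of other genes 0.045. These correlations are descriptions only: the libraries share groups and depth, and the choice of members and the split by non-exposed level both favour high values within a set.

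The 51 members included g1125.t1, g8454.t1, g5171.t1, g3846.t1 and g6040.t1. Their summed level averaged 10087 ± 1896 TPM in Long non-exposed libraries, 3607 ± 1843 at 12 h, 4380 ± 458 at 18 h, 7716 ± 2851 at 24 h, 1497 ± 621 at 36 h, 1792 ± 1292 at 48 h and 2014 ± 1433 at 72 h (SD, n = 3 each). Of the 51, 26 were lower at 72 h than at 48 h. In the Short time course the sum was 18162 ± 3349 TPM in non-exposed libraries, 8575 ± 3292 at 1 h, 11421 ± 4648 at 2 h, 6099 ± 3814 at 3 h, 7806 ± 1629 at 4 h, 8782 ± 3647 at 5 h, 5835 ± 1726 at 6 h, 5825 ± 2589 at 9 h and 3801 ± 768 at 12 h (SD, n = 3 each). At 12 h the mean sum was 3801 TPM in Short (2985 to 4510 TPM) and 3607 TPM in Long (1491 to 4858 TPM). Both means lay below the non-exposed ones, which the choice and the split favour, so nothing is read from this.

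The 149 others included g4531.t1, g8702.t1, g2413.t1 and g4550.t1. Their summed level averaged 21147 ± 2739 TPM in Long non-exposed libraries, 13759 ± 4338 at 12 h, 10254 ± 930 at 18 h, 20326 ± 9149 at 24 h, 7928 ± 1836 at 36 h, 4636 ± 1183 at 48 h and 3921 ± 718 at 72 h (SD, n = 3 each). Of the 149, 121 were lower at 72 h than at 48 h. The sets cannot be contrasted on this count, because the limit relative to Short non-exposed applied at 72 h alone and was the stricter one where Short non-exposed was low. In the Short time course their sum was 11456 ± 3101 TPM in non-exposed libraries, 6628 ± 1036 at 1 h, 8780 ± 776 at 2 h, 8149 ± 1240 at 3 h, 14241 ± 5581 at 4 h, 13489 ± 6246 at 5 h, 10146 ± 2230 at 6 h, 7919 ± 932 at 9 h and 7102 ± 3264 at 12 h (SD, n = 3 each). Their sum in the Short course was thus highest at 4 and 5 h, where it also varied most between libraries.

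**Figure D3:**
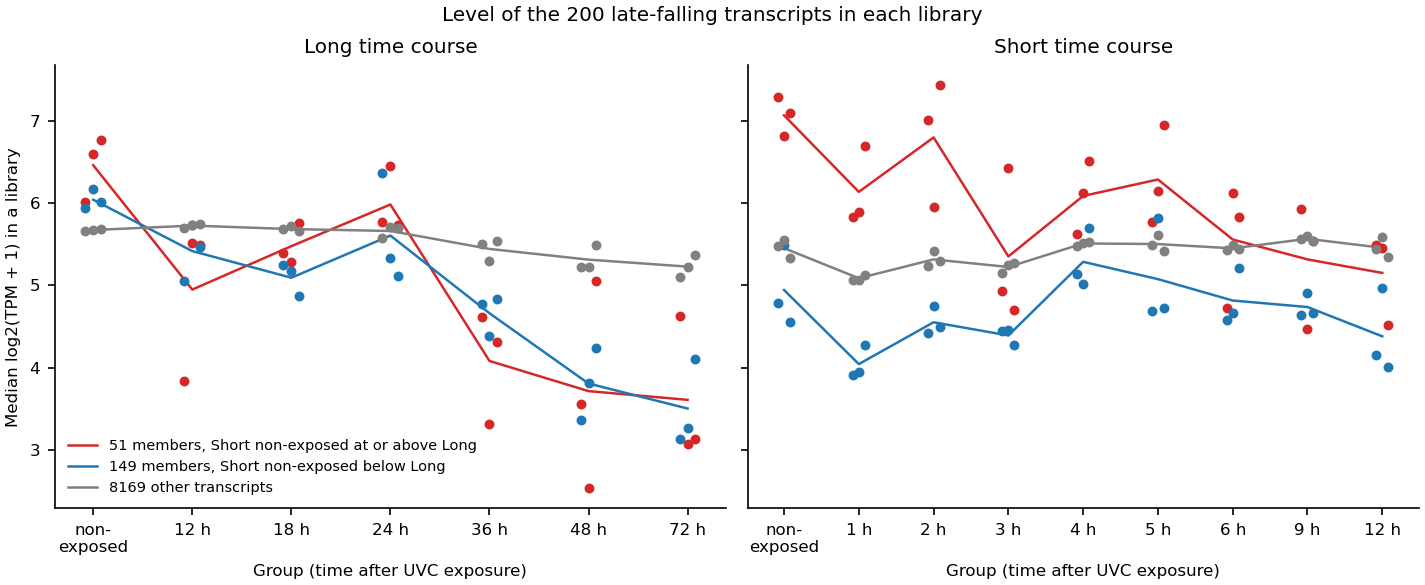
Median log2(TPM + 1) over the 51 members (red), the 149 members (blue) and the 8169 other genes (grey) in each library, for the Long and Short groups in order of time; lines join the means of the 3 libraries. The lines of both sets of members are lowest at Long 48 and 72 h, which the rule required to be low relative to non-exposed animals only. The line of the 149 has its Short maximum at 4 h, and the other genes lie between 5.06 and 5.75.

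Levels of the 149 moved with the number of abundant transcripts listed at 0. Over the libraries, after removing group means, the median correlation between a member's level and the log2 of that number was 0.29 in the 149 (110 above 0), −0.14 in the 51 (8 above 0) and −0.13 in the other genes. In 9 of the 16 groups the library with the most such zeros also had the highest median over the 200 members. A comparison limited to libraries with at most 30 such zeros, added after the values were seen, left all 6 libraries of Long 48 and 72 h and 2 of Short non-exposed. There the median level of the 149 was 3.14 to 4.24 on the log2 scale at Long 48 and 72 h, against 4.56 and 4.79 in Short non-exposed. For the 51 it was 2.53 to 5.05 at Long 48 and 72 h, against 7.09 and 7.29 in Short non-exposed. Nothing is read from the direction or size of these differences, because the choice required low values at Long 72 h relative to Short non-exposed and the split used the Short non-exposed level. All Long non-exposed libraries had more zeros than this limit, so within the Long course the low number of zeros and the late times cannot be told apart.

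**Figure D4:**
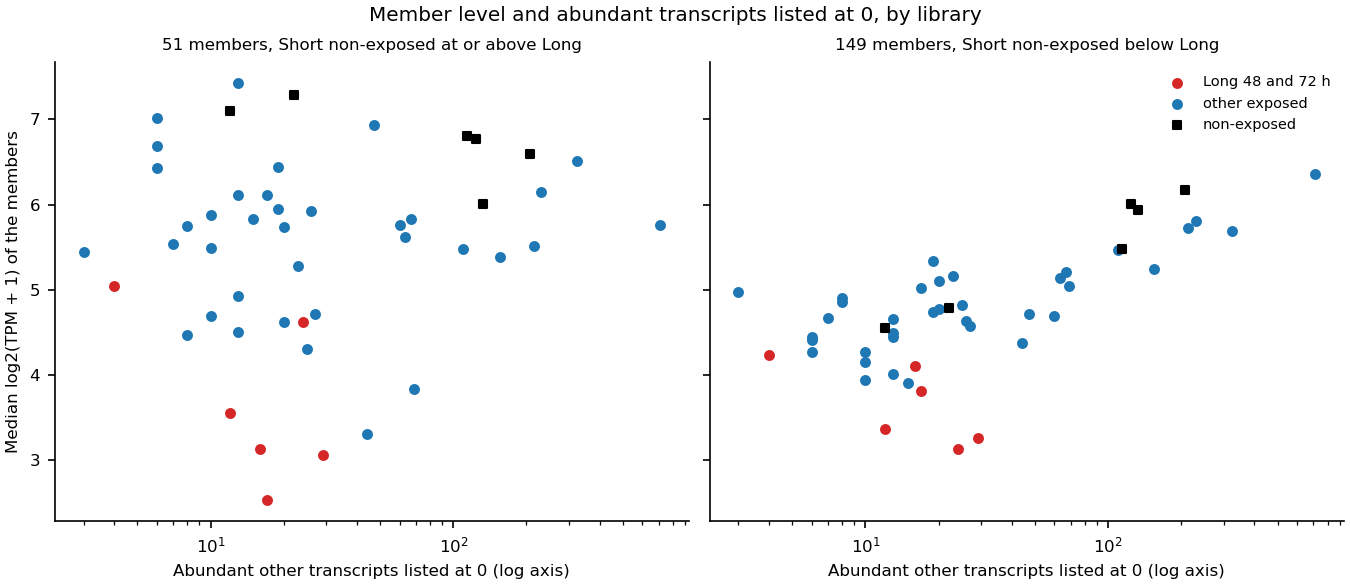
Median log2(TPM + 1) of the 51 members (left) and the 149 members (right) against the number of 6758 abundant other transcripts listed at 0 (log axis), with 1 point for each of the 48 libraries. Points of the 149 run upward to the library with 710 zeros, and the Long 48 and 72 h libraries (red) lie at 29 zeros or fewer, with medians of 2.53 to 5.05 on the left and 3.14 to 4.24 on the right.

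To see how the members behaved outside the groups that set the falls, 4 comparisons were made between other groups. These groups entered the choice only through the mean over all libraries. The comparisons used limma on log2(TPM + 1) over 12088 transcripts with a mean of at least 1 TPM. Members had a mean of at least 10 TPM, so the shares over all transcripts include less abundant ones. All 200 members were tested. A call required an adjusted p under 0.05 (Benjamini-Hochberg) and a log2 difference over 1 in either direction.

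The first comparison asked whether members were already lower at Long 36 h than at Long 12, 18 and 24 h. Group means were lower for 174 of the 200, with a median log2 difference of −0.78, beside −0.06 over all transcripts tested, of which 6442 of 12088 were lower. The 51 had a median of −1.62, with 48 lower, and the 149 a median of −0.68, with 126 lower. Only 1 member was called lower (0.364% of all transcripts tested were) and 0 were called higher (0.596%) by limma, and 69 members had an unadjusted p under 0.05, beside 1826 transcripts in all. The called member was g6040.t1, with 77.4, 28.3 and 67.2 TPM at 36 h, against 75.0 to 464 TPM in the 9 libraries of 12, 18 and 24 h. It fell by 1.99 on the log2 scale (SE 0.456, limma adjusted p = 0.0421). The highest of its 36 h libraries was slightly above the lowest of the earlier ones, and the call was lost in 14 of 23 alternatives (limma adjusted p up to 0.342), among them leaving out any 36 h library. In 16 members (8.0%) all 36 h libraries lay below all those of 12, 18 and 24 h, against 4.41% of the 8369 genes.

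In the Short time course, 4, 5 and 6 h were compared with 1, 2 and 3 h. Of the members 45 were lower, beside 5381 of all 12088 transcripts tested. The 200 had a median log2 difference of 0.61, beside 0.09 over all transcripts tested. By limma 29 members were called higher, where 1.8% of all transcripts were, and 1 lower, where 1.74% were. The 29 all belonged to the 149, whose median was 0.76 with 132 higher, while the 51 had a median of −0.01 with 28 lower. Median scaling of the libraries took the median of all transcripts to −0.05 and left 9 members called higher and 2 lower, beside 89 and 300 transcripts in all.

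The largest called rises were in g13435.t1, g9824.t1, g4550.t1, g8140.t1 and g13020.t1. Transcript g4550.t1 had 356, 313 and 838 TPM at 4 h, 287, 806 and 354 TPM at 5 h and 330, 250.2 and 469 TPM at 6 h, against 107 to 226 TPM in the 9 libraries of 1, 2 and 3 h. The groups did not overlap, and the log2 difference was 1.41 (SE 0.231, limma adjusted p = 0.000724). In g9824.t1 the 9 libraries of 4, 5 and 6 h had 29.0 to 99.0 TPM, against 11.7 to 24.1 TPM at 1, 2 and 3 h (log2 difference 1.46, SE 0.253, limma adjusted p = 0.00106). In g8140.t1 they had 25.4 to 103 TPM, against 10.4 to 26.4 TPM at 1, 2 and 3 h (log2 difference 1.29, SE 0.267, limma adjusted p = 0.00325). The values of g8140.t1 overlapped slightly, and the difference of g13435.t1 was 1.60 (SE 0.416, limma adjusted p = 0.0117) and that of g13020.t1 1.28 (SE 0.299, limma adjusted p = 0.00692). In 4 members (2.0%) every library of 4, 5 and 6 h lay above every library of 1, 2 and 3 h, against 0.777% of the 8369 genes.

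The number of calls changed when libraries with many zeros were left out. Without replicate 3 of Short 4 h, 14 members and 162 of all transcripts were called higher. Without replicate 2 of Short 5 h these counts were 11 and 141, and without both libraries 5 and 111. Without both, the median of the 149 was 0.56, with 133 of 149 higher. The direction was therefore as common without these libraries, and g13435.t1, g9824.t1 and g4550.t1 were called in all 29 alternatives run. The libraries of 4, 5 and 6 h that remained still had 13 to 67 abundant transcripts at 0, against 6 to 19 at 1, 2 and 3 h. Leaving out these libraries thus does not separate time from zeros, and the part of the zeros in the direction was not tested. The part of the zeros in the lower number of calls was not tested, since 2 libraries fewer also entered the fit. The called fall was that of g3846.t1, with 61.0 to 197 TPM at 4, 5 and 6 h, against 68.9 to 570 TPM at 1, 2 and 3 h (log2 difference −1.29, SE 0.337, limma adjusted p = 0.0124).

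The same early libraries served to compare Short 9 and 12 h with 1, 2 and 3 h. Over the 200 members the median log2 difference was 0.06, beside 0.25 over all transcripts. Of the members 93 were lower, beside 3786 of all 12088 transcripts tested. Of the 51, 49 were lower, with a median of −0.69, and of the 149, 44 were lower, with a median of 0.22. Median scaling, which took the median of all transcripts to −0.003, turned the median of all members to −0.20 and that of the 149 to −0.04, and left the 51 at −0.94 with all 51 lower. The difference between the sets was not tested, since the split was made with these values known.

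By limma 2 members were called lower at Short 9 and 12 h (0.596% of all transcripts were) and 4 higher (2.3% were). The falls were in g9052.t1, at 45.2 to 102 TPM against 52.1 to 507 TPM at 1, 2 and 3 h (log2 difference −1.30, SE 0.405, limma adjusted p = 0.0367), and in g3846.t1 (−1.24, SE 0.376, limma adjusted p = 0.0324). In g3846.t1 the later libraries had 66.2 to 268 TPM, so in both genes the ranges overlapped. Neither call was firm: that of g9052.t1 was lost in 11 of 25 alternatives (limma adjusted p up to 0.104) and that of g3846.t1 in 8 of 25 (limma adjusted p up to 0.127), in each case by leaving out 1 library. The highest rise was that of g7276.t1, with 74.5, 103 and 53.0 TPM at 9 h and 21.8, 48.2 and 19.2 TPM at 12 h, against 8.98 to 36.9 TPM at 1, 2 and 3 h (log2 difference 1.21, SE 0.269, limma adjusted p = 0.00478). Its 9 h libraries all lay above the early ones, and its 12 h libraries overlapped them. The others were g4890.t1 (1.17), g8772.t1 (1.03) and g13020.t1 (1.02). Of 25 alternatives, g7276.t1 was called in 23, g4890.t1 in 22, g8772.t1 in 18 and g13020.t1 in 8, and with median scaling no member was called higher.

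Both courses had a 12 h group, which allowed Long 12 h to be set against Short 12 h. The courses also differ in plates and exposures, which cannot be told apart from other causes of a difference here. Abundant transcripts listed at 0 numbered 69, 214 and 110 in the Long 12 h libraries, against 10, 3 and 13 in Short 12 h. These zeros and the course cannot be told apart in this comparison. The median log2 difference of the 200 was 0.82, beside 0.07 over all transcripts, of which 5495 of 12088 were lower in Long. The set of 149 had a median of 1.10, with 128 of them higher in Long, and the set of 51 a median of −0.22, with 30 of them lower. The split used the difference between Short and Long non-exposed animals, which favours such a contrast, so nothing is read from it. By limma 0 members were called lower (0.0993% of all transcripts were) and 0 higher (0.00827%), although 81 members and 2075 of all transcripts had an unadjusted p under 0.05. Without replicate 2 of Short 12 h, 24 members were called higher, beside 215 of all transcripts tested. Without replicate 1 of Long 12 h, 9 members were called higher, beside 74 of all transcripts.

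**Figure D5:**
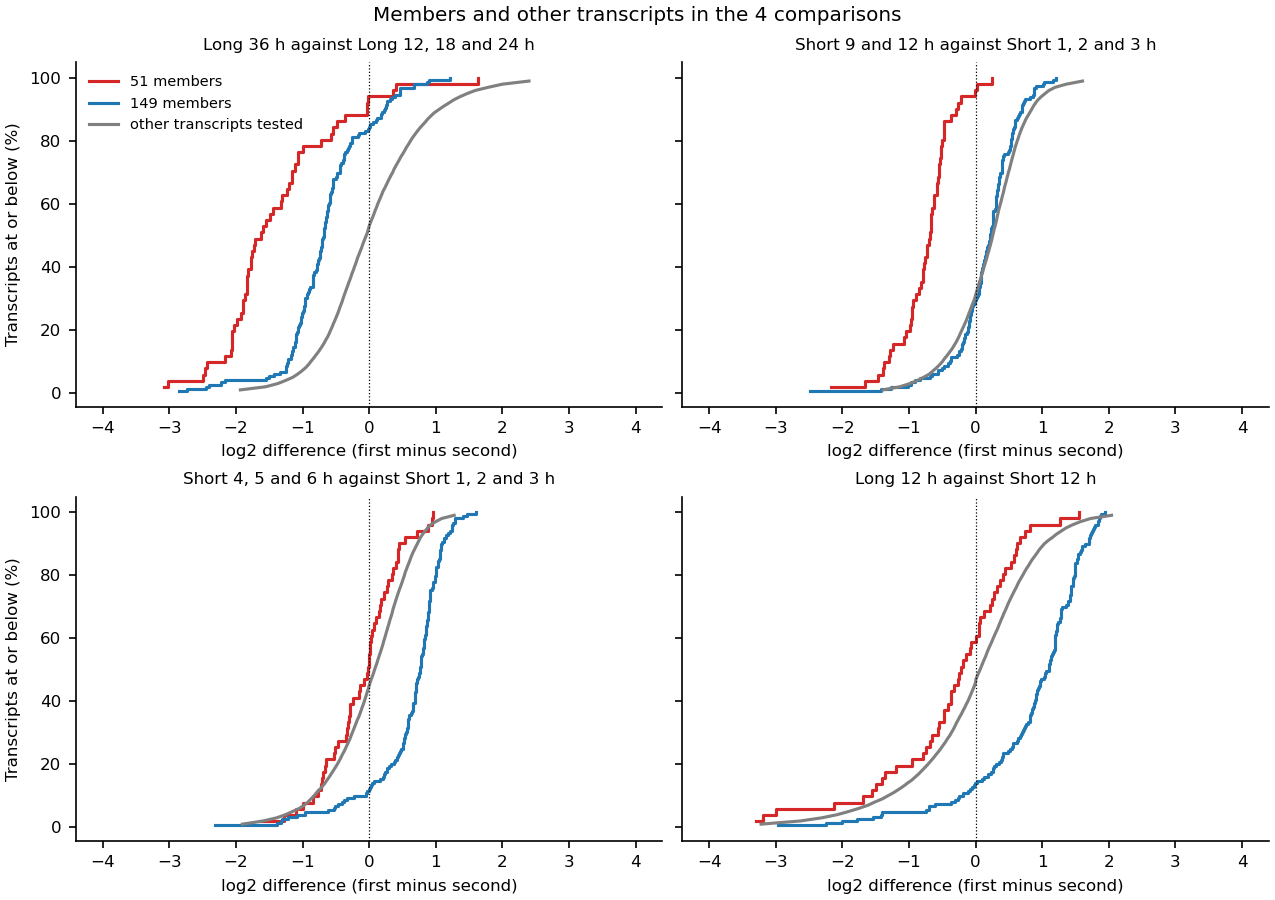
Cumulative share (%) of the 51 members (red), 149 members (blue) and other transcripts tested (grey) at or below a log2 difference, in 4 comparisons. The groups compared entered the choice of members only through the mean TPM over all libraries. The split into sets used Short against Long non-exposed animals, which favours their separation at Long 12 h against Short 12 h. Over most of its length the red line lies left of the others at Long 36 h and at Short 9 and 12 h, and the blue line right of the others at Short 4, 5 and 6 h and at Long 12 h.

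Members varied more between replicate libraries than other genes did, with a median within-group SD of 0.683 on the log2 scale, against 0.532. After group means were removed, the median correlation between members was 0.178 over the 48 libraries, against 0.027 between other genes. Both measures include the groups that the choice used, and a choice by extreme group means can favour transcripts that vary between libraries. Neither is therefore read as a trait of the members. Some members had consecutive identifiers, which made 10 pairs of 20 members. Their correlations over the 48 libraries ran from 0.38 to 0.9, highest for g3845.t1 with g3846.t1 (0.9), and for g4073.t1 with g4074.t1 and g6039.t1 with g6040.t1 (0.88 each). Whether such pairs are near-identical copies that share reads was not examined, so their separate values are uncertain.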

How the data were processed

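Polyadenylated RNA of 48 libraries was analysed from the deposited table. The authors quantified reads with kallisto against their own gene set and deposited TPM per transcript, unfiltered; a genome build is not given in sources used here. Mapped reads come from the authors' separate mapping. Precision rests on the spread between the 3 libraries of a group, which the study calls biological replicates. Samples were grouped by their labels, and 0 columns lacked a sample.

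Differences used log2(TPM + 1) and limma 3.58.1 in R 4.3.3 (eBayes with a trend, two-sided, Benjamini-Hochberg), over all groups of a course, or over all 16 groups for Long against Short, and over 12088 transcripts with a mean of at least 1 TPM. The study's count test needs counts, which were not used here. Fits were tested on simulated data. Other steps used Python 3.11.15, numpy 2.4.6, pandas 2.3.3 and matplotlib 3.10.9.

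The members and lists were chosen with earlier results of these data known. Named genes were the 10 members with the lowest values, the 10 highest in Long non-exposed libraries, the 3 on either side of the limit, up to 5 called per direction and comparison, and the 5 largest and 5 smallest drops between 36 and 72 h; any other was named after its values were seen. Alternatives were pseudocounts of 0.1 and 5, other filters, median scaling, quantile normalization, a replicate block, only the groups compared, no fold threshold, robust eBayes and each library left out; leaving out pairs of libraries was added after seeing the data. Comparisons of the authors in the study's tables were not used.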

Additional observations from a re-analysis of the deposited data

How the results depend on the processing

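Counts of members called (limma, Benjamini-Hochberg) depended on the settings as follows, and the causes were not tested. At Long 36 h, the 1 called lower became 2 with a pseudocount of 5 and 0 without a filter, with median scaling, with the replicate block or with only the groups compared, and 0 to 7 with 1 library left out. At Short 4, 5 and 6 h, the 29 called higher became 13 with a pseudocount of 5, 9 with median scaling, 13 with quantile normalization, 69 with no fold threshold, and 11 to 37 with 1 library left out; the 1 called lower became 2 with a pseudocount of 0.1, a mean of at least 5 TPM or median scaling, 3 with no fold threshold, and 1 to 3 with 1 library left out. At Short 9 and 12 h, the 4 called higher became 1 with a pseudocount of 5, 0 with median scaling, 1 with quantile normalization, 7 with no fold threshold, and 1 to 6 with 1 library left out; the 2 called lower became 4 with median scaling and 0 to 7 with 1 library left out. The median of the members in that comparison, 0.06, turned to −0.20 with median scaling, −0.17 with quantile normalization, −0.03 without replicate 2 of Short 9 h and −0.12 without replicate 2 of Short 12 h, and ran up to 0.18 without replicate 3 of Short 12 h. For Long against Short at 12 h, the 0 called higher became 1 with a pseudocount of 0.1, 2 with a pseudocount of 5, 1 with quantile normalization and 0 to 24 with 1 library left out, and the 0 called lower 0 to 1. Same-numbered libraries did not deviate together (median correlation 0.002 in Long and 0 in Short), so the numbers were not taken as pairs; apart from the call at Long 36 h, the replicate block left 29 calls at Short 4, 5 and 6 h and 3 of the 4 rises at Short 9 and 12 h. Of the 200 members, 200 met the choice's thresholds with a pseudocount of 0.1, 147 with a pseudocount of 5, 171 with median scaling and 176 with quantile normalization, and 148 to 200 with 1 library left out, fewest without replicate 2 of Short non-exposed and 158 without replicate 1 of Long 72 h. Over all transcripts tested, limma called 218 higher at Short 4, 5 and 6 h. With median scaling these were 89, and with 1 library left out 141 to 301. At Short 9 and 12 h the same counts were 278, 91 and 211 to 360. At Long 36 h 44 were called lower, 23 with median scaling and 1 to 100 with 1 library left out. For Long against Short at 12 h 1 was called higher, and 0 to 215 with 1 library left out. Depth behind each TPM value is unknown, so low values carry no interval.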
